A study of Mus musculus with 4 samples.

Results

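The genes Ell, Ell2, Ell3, Aff1, Aff3 and Aff4, 6 of 21887 protein-coding mouse genes, were described by the H3K27ac peaks found in each gene with 10 kb on each side. The study asked what deletion of Hdac3, a histone deacetylase, does to H3K27ac in mouse chondrocytes. One culture was labelled hdac3-knockout and had been transduced with Cre-recombinase adenovirus. The other culture was labelled wild-type and had received GFP control adenovirus. Both were chondrocytes of strain C57Bl/6, described for the Cre culture as primary cells in micromass (a dense droplet culture), and H3K27ac chromatin was sequenced in 1 library of each. The labels give neither the age and number of the animals nor the floxed or other alleles behind the knockout label, and no replicates were analysed here. All differences below are therefore differences between 2 libraries, in which culture, adenovirus and genotype cannot be told apart. The members were selected on the numbers, clusters, covered lengths and library balance of these peaks, so those values are given as a description and no test was made.

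ELL proteins are elongation factors that keep RNA polymerase II from pausing along a gene. AFF proteins are long scaffold proteins. They hold an ELL protein together with the kinase complex P-TEFb (CDK9 with cyclin T) in the super elongation complex, which releases paused polymerase at genes that are switched on quickly. In humans, variants of AFF4 and AFF3 cause syndromes with skeletal malformation, and ELL and AFF1 are fusion partners of KMT2A in leukaemia. Acetylation of H3K27 is found at nucleosomes beside active start sites and at active enhancers.

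All 6 members had a promoter sequence in the RefSeq table of GRCm38.p6, which has the coordinates of mm10. The 250 bases before the start site are printed, 5′ to 3′, for the 3 members with large groups of peaks, and for Gm16150, a long non-coding RNA gene inside Aff3 and on the opposite strand, because peaks lay on its start. Capitals mark the letters GGGCGG (GC box), the letters CCAAT (a promoter box), the palindrome TGACGTCA (ATF and CREB site) and the palindrome CACGTG (E-box), searched on both strands. The letters TATAAA (held by 12.4% of promoter windows) and the letters TGACTCA (AP-1 site, 4.46%) were searched too and are not in these 4 windows.
Ell, chr8:70539425-70539674, plus strand: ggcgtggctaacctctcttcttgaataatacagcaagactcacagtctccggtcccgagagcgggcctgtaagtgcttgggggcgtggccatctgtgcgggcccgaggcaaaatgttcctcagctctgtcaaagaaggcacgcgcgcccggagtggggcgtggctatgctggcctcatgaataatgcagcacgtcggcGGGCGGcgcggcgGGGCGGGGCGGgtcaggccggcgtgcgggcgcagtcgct
Ell2, chr13:75707234-75707483, plus strand: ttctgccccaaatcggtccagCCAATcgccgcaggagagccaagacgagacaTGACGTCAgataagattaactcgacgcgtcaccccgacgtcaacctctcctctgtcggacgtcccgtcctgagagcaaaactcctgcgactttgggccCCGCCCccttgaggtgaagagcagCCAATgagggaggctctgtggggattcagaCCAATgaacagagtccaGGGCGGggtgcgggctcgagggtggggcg
Aff3, chr1:38627245-38627494, minus strand: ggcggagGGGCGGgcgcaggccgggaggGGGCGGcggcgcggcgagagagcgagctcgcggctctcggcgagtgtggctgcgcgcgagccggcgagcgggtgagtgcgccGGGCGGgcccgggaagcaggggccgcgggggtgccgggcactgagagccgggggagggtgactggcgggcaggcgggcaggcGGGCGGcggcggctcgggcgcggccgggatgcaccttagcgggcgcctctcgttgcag
Gm16150, chr1:38219052-38219301, plus strand: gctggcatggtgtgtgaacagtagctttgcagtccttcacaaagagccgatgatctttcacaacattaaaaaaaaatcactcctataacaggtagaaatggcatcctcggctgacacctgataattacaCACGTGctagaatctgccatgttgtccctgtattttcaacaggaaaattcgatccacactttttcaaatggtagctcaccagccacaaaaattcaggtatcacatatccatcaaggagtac
The GGGCGG letters occurred at 3 positions before Ell (matches may overlap), 2 before Ell2 and 4 before Aff3, and 32.7% of 32851 promoter windows of the same length held at least 1. The Ell2 window also held 3 CCAAT matches (33.8% of windows) and 1 TGACGTCA match (1.55% of windows). The Gm16150 window held 1 CACGTG match (6.02% of windows). The member windows were rich in G and C, with 66.0% before Ell, 61.2% before Ell2 and 82.0% before Aff3, against 41.6% before Gm16150 and a median of 52.4% over all windows. No peak of either library lay on the 250 bases before any of the 6 members. The Gm16150 window had 58 bases under a Cre peak and all 250 under a GFP peak.

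Acetylated length was longer in the Cre library at Ell and Ell2 and longer in the GFP library at Aff3. Ell had 22 Cre peaks over 5655 bp, against 8 GFP peaks over 1817 bp, a ratio of Cre to GFP length of 3.11. Ell2 had 22 Cre peaks over 6044 bp, against 9 GFP peaks over 2410 bp, a ratio of 2.51. Aff3 had 28 Cre peaks over 7812 bp, against 44 GFP peaks over 15069 bp, a ratio of 0.518. These 3 genes held 133 of the 145 member peaks, and their balances ran in opposite directions. The other paralogs were sparsely marked. Ell3 had 3 Cre peaks over 720 bp, against 2 GFP peaks over 384 bp. Aff1 had 1 Cre peak over 147 bp, against 2 GFP peaks over 307 bp. Aff4 had 2 peaks in each list covering 345 and 454 bp. Summed over the 6 members the lists were nearly even, with 78 Cre peaks over 20723 bp, against 67 GFP peaks over 20441 bp, a Cre share of 50.3% of the length.

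A covered length at least 2-fold longer in the Cre library was seen at 2 members (Ell and Ell2), and at least 2-fold shorter at 1 (Aff1, with 3 peaks in all). Over the 7081 protein-coding genes with a peak in either list, 28.5% were at least 2-fold longer and 29.0% at least 2-fold shorter in the Cre library. Among the 180 genes with 20 or more peaks, a class chosen after the values were seen, the shares were 9.44% and 7.22%. The members' counts of 2 and 1 of 6 are thus not apart from the share among all genes with a peak. By number of peaks, the Cre share was 73.3% at Ell (95% exact interval 54.1 to 87.7), 71.0% at Ell2 (52.0 to 85.8) and 38.9% at Aff3 (27.6 to 51.1), against 50.5% of all peaks in the 2 lists. The intervals cover counting error only, and neighbouring peaks of 1 library are not independent.

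**Figure D1:**
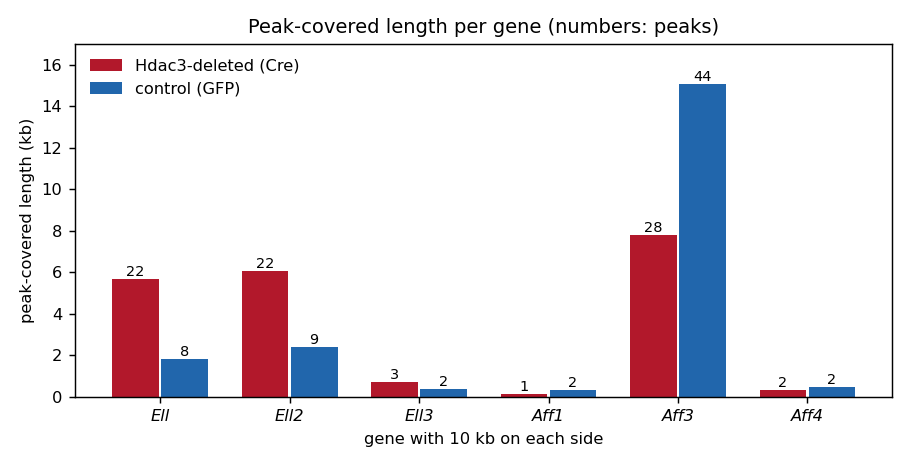
Peak-covered length (kb) of each member with 10 kb on each side, with the Hdac3-deleted (Cre) library in red and the control (GFP) library in blue; each bar is 1 library and the number above it counts its peaks. Red bars are the taller at Ell (22 and 8 peaks) and Ell2 (22 and 9), and the blue bar is the taller at Aff3 (28 and 44).

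Ell, the first-described elongation factor of its family, lies at chr8:70539675-70592858. Peaks of both lists with gaps of at most 5 kb were joined into clusters, 23 over the 6 members. Of these, 12 held peaks of both lists, 5 held Cre peaks alone and 6 held GFP peaks alone, beside 46.0%, 28.6% and 25.4% of all 8267 clusters. Ell had 3 of them. The cluster at the start site (chr8:70538386-70545237) had 5 Cre peaks over 960 bp, against 3 GFP peaks over 725 bp. The main cluster lay inside the gene, 21.6 to 37.0 kb after the start (chr8:70561302-70576685), with 15 Cre peaks over 4377 bp, against 5 GFP peaks over 1092 bp. Between them, 14.5 to 16.4 kb after the start, a cluster of 2 Cre peaks had no GFP peak. The surplus of Cre length at Ell was thus for the most part inside the gene, with a Cre share of 80.0% there and 57.0% beside the start site.

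The height of a peak was read as the summit pileup, the number of fragments at its summit. Ell pileups ranged from 8 to 21 in the Cre library, against 9 to 15 in the GFP library. The highest was a Cre peak of 593 bp with 21 fragments, 26.4 kb after the start, which overlapped no GFP peak. Of the Cre peaks, 6 of 22 (27.3%, interval 10.7 to 50.2) overlapped a GFP peak, against 40.7% of the whole Cre list. Of the GFP peaks, 6 of 8 (interval 34.9% to 96.8%) overlapped a Cre peak, against 41.4% of the whole GFP list. A GFP peak lay within 1 kb of 16 of the 22 Cre peaks (72.7%), where the whole Cre list had 64.8%. Most Cre peaks of Ell without an overlap therefore stood next to a GFP peak rather than alone.

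The main Ell cluster lies away from both gene ends. The last Cre and GFP peaks stood 36.7 and 31.9 kb after the start, and none was found in the rest of the gene. Just outside the 10 kb limit, the Cre list had a peak of 147 bp with 10 fragments, 517 bp beyond it, and the nearest GFP peak was 2056 bp beyond it with 15 fragments. At the other 5 members the nearest peak of either list outside the limit was at least 10.4 kb beyond it. Inside the limit but outside the gene, the farthest peak was a GFP peak near Aff4, described with that gene. In bulk chromatin, fewer cells with the mark and less of the mark per cell cannot be told apart.

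**Figure D2:**
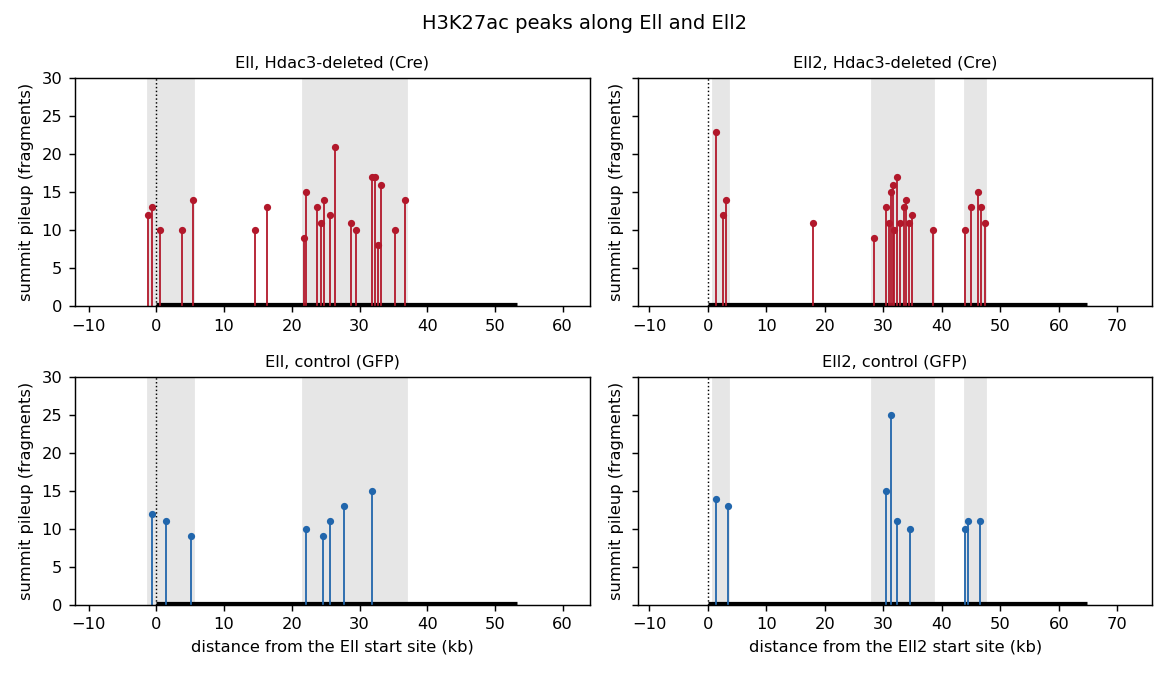
Summit pileup (fragments) of each H3K27ac peak along Ell (left) and Ell2 (right), by distance from the start site in kb, with the Cre library above and the GFP library below. Black bars on the axis are the genes, and grey bands are clusters of 5 or more peaks. Cre peaks fill the interior bands more densely than GFP peaks, and the tallest GFP peak of Ell2 reaches 25 fragments.

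Ell2, the paralog known in plasma cells for the processing of immunoglobulin transcripts, lies at chr13:75707484-75772361. It had 4 clusters, 3 of them with peaks of both lists. The cluster after the start site (chr13:75708354-75711059) had 3 Cre peaks over 1276 bp, against 2 GFP peaks over 470 bp, with pileups of up to 23 and 14. The largest cluster, 28.1 to 38.6 kb after the start (chr13:75735562-75746055), had 13 Cre peaks over 3381 bp, against 4 GFP peaks over 1429 bp. A further cluster at 43.9 to 47.5 kb had 5 Cre peaks over 1184 bp, against 3 GFP peaks over 511 bp. Covered length was longer in the Cre library in each of the 4 clusters, with Cre shares of 73.1%, 70.3% and 69.9% in the 3 shared clusters and 1 Cre peak in the other. The start and the interior of Ell2 were thus closer in balance than those of Ell.

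Peak heights at Ell2 did not follow the covered length in every place. Cre pileups ranged from 9 to 23, against 10 to 25 for GFP. The highest peak of the gene was in the GFP list, with 25 fragments and fold 13.3 as the authors' caller gave it, 31.2 kb after the start (chr13:75738406-75738835). It overlapped 2 Cre peaks with 11 and 15 fragments. So within a cluster with more Cre length, 1 site was higher in the control. Of the Cre peaks, 9 of 22 (40.9%, interval 20.7 to 63.6) overlapped a GFP peak, against 40.7% of the whole Cre list. Of the GFP peaks, 8 of 9 (88.9%, 51.8 to 99.7) overlapped a Cre peak, against 41.4% of the whole GFP list. All 17 GFP peaks of Ell and Ell2 had a Cre peak within 1 kb, where the whole GFP list had 67.4%. These comparisons with the whole lists, and those given for Ell above, are not like for like. Ell and Ell2 were selected on peak numbers, clusters and balance, whereas 25.4% of all clusters held GFP peaks alone.

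Ell3, a short gene at chr2:121439027-121442601 whose product is known from testis and from enhancers of embryonic stem cells, had no peak inside it. Its 3 Cre and 2 GFP peaks formed 1 cluster at chr2:121447996-121448943, from 5.39 to 6.34 kb upstream of the Ell3 start. The nearest gene to each of these peaks was Serf2, whose start is at 121449198. Pileups were 13, 20 and 16 in the Cre library, against 11 and 12 in the GFP library. All 3 Cre values were above both GFP values, at a site that belongs by position to Serf2.

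Aff3, the longest member (chr1:38175393-38630178, transcribed from the minus strand), had the most peaks. By covered length it stood at rank 25 of 21887 genes for Cre, against rank 6 for GFP. Ell stood at ranks 49 and 354 and Ell2 at ranks 45 and 222. Ranks moved with the flank and the peak threshold: over the alternatives run, Ell stood at ranks 47 to 136 for Cre and 271 to 1609 for GFP. Ell2 then stood at ranks 40 to 82 for Cre and 159 to 609 for GFP, and Aff3 at ranks 19 to 59 for Cre and 4 to 6 for GFP. The last GFP rank of Ell was reached at the strictest q-value threshold, where no GFP peak of the gene was left. Long genes collect more peaks, and per kb of neighbourhood the order of the paralogs was different. Ell had 77.3 bp of peak per kb in the Cre library, against 24.8 for GFP (ranks 83 and 847), Ell2 had 71.2 against 28.4 (ranks 99 and 710), and Aff3 had 16.5 against 31.7 (ranks 1399 and 597). By density, Ell was above Ell2 and both were above Aff3 in the Cre library, whereas Aff3 was the first of the 3 in the GFP library.

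Acetylation at Aff3 was gathered far from the promoter. Its start site at 38627244 had no peak near it: the nearest Cre and GFP peaks were 17149 and 17862 bp away. Beyond the middle of the gene lay 25 of 28 Cre peaks and 43 of 44 GFP peaks, towards its 3′ end. The peaks formed 10 clusters, 5 of them with peaks of both lists, 2 with Cre peaks alone and 3 with GFP peaks alone. The longest stretch without a peak in either list measured 177 kb and lay in the part of the gene nearer to the start (chr1:38424510-38601859). Aff3 thus differed in layout from Ell and Ell2, where a cluster stood beside the start site and the others followed within 47.5 kb.

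The 4 clusters of Aff3 with 5 or more peaks held 24 Cre and 40 GFP peaks. The largest (chr1:38240191-38264328) lay 363 to 387 kb after the start and had 10 Cre peaks over 3386 bp, against 16 GFP peaks over 6699 bp. The next, at 405 to 417 kb (chr1:38210671-38222124), had 9 Cre peaks over 2398 bp, against 11 GFP peaks over 4172 bp. A smaller one at 318 to 323 kb (chr1:38304620-38309277) had 5 Cre peaks over 1396 bp, against 7 GFP peaks over 1813 bp. GFP length was the longer in each of the 3, with Cre shares of 33.6%, 36.5% and 43.5%. Of the Cre peaks of Aff3, 22 of 28 (78.6%, interval 59.0 to 91.7) overlapped a GFP peak, against 40.7% of the whole Cre list. Of its GFP peaks, 19 of 44 (43.2%, 28.3 to 59.0) overlapped a Cre peak, against 41.4% of the whole GFP list. These comparisons are not like for like either. Aff3 was selected on peak numbers, clusters and balance, whereas 28.6% of all clusters held Cre peaks alone and 25.4% held GFP peaks alone.

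No Cre peak was listed in the cluster at chr1:38399936-38402687, 225 to 227 kb after the start, where 6 GFP peaks took up 1728 bp. From the lower to the higher coordinate its summit pileups were 11, 12, 14, 23, 18 and 9 fragments, with folds between 5.13 and 12.3 as the authors' caller gave them. The nearest Cre peaks were 90.7 kb away on one side and 21.7 kb away on the other. Clusters of 6 or more peaks nearly always held both libraries: of 1093 such clusters in the genome, 98.7% did, 11 (1.01%) had Cre peaks alone and 3 (0.274%) had GFP peaks alone. The other GFP clusters of this kind were nearest to Fzd7, a Wnt receptor gene (6 peaks), and Rbfox2, a splicing factor gene (9 peaks). The Aff3 cluster had the highest summit of the 3. The limit of 6 peaks is the size of the Aff3 cluster itself, and the 1093 clusters include larger ones. These shares are thus not those of clusters of its size, which were not computed. Over all 8267 clusters, 25.4% had GFP peaks alone. A region without a Cre peak is under the caller's threshold, not at 0, and the lowest summit in the Cre list had 7 fragments. Without this cluster, a choice made after the values were seen, the covered length of Aff3 was 7812 bp for Cre against 13341 bp for GFP. The Cre share was then 36.9%, and 34.1% with the cluster.

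**Figure D3:**
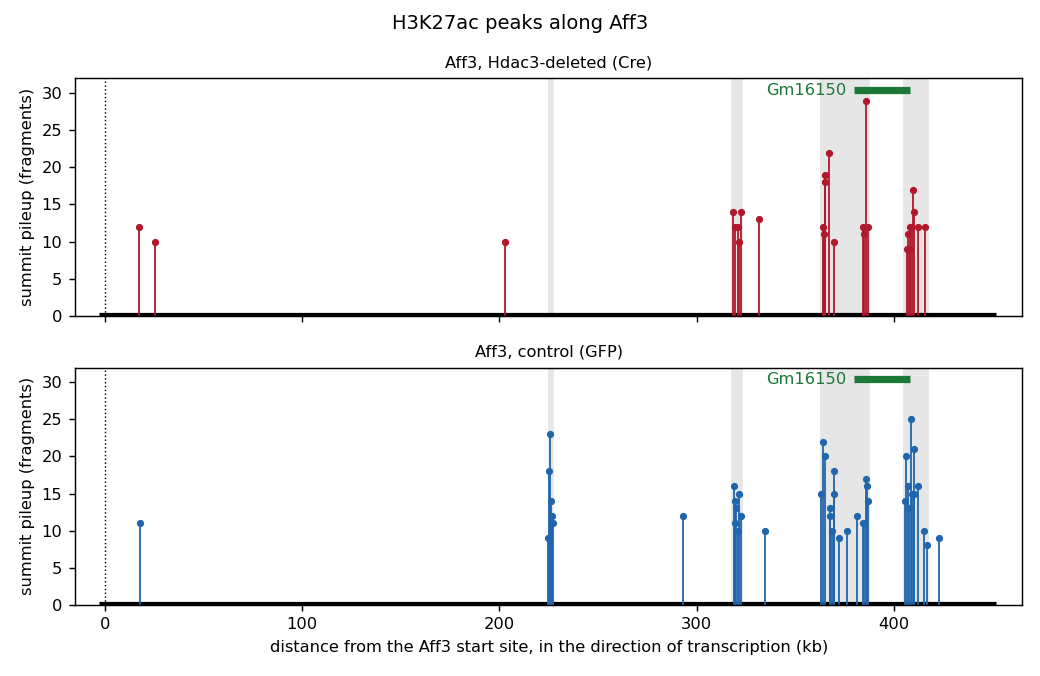
Summit pileup (fragments) of each H3K27ac peak along Aff3 by distance from its start site in the direction of transcription (kb), with the Cre library above and the GFP library below. The black bar on the axis is the gene, the green bar is Gm16150 and grey bands are clusters of 5 or more peaks. The band at 225 to 227 kb holds 6 GFP peaks and no Cre peak, and the other 3 bands hold peaks of both libraries.

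Heights at Aff3 had a median of 12 fragments in the Cre library (9 to 29), against 13.5 for GFP (8 to 25). Summits of 15 or more fragments numbered 5 Cre and 18 GFP at Aff3, where Ell had 5 Cre and 1 GFP and Ell2 had 5 Cre and 2 GFP. The highest summit of the gene was nevertheless a Cre peak of 358 bp with 29 fragments (chr1:38241542-38241899), which overlapped a GFP peak with 17. The widest was a GFP peak of 2201 bp (chr1:38260232-38262432), the 10th widest of 12873, which overlapped 3 Cre peaks of 955, 295 and 162 bp. At this site the GFP list thus had 1 wide peak where the Cre list had separate, narrower ones. With peaks of a list within 500 bp merged, the Cre share of covered length at Aff3 was 34.0%, against 34.1% without merging. Merging thus left the balance of the gene almost unchanged.

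Both large clusters of Aff3 reached the long non-coding RNA gene Gm16150 (chr1:38219302-38247651, plus strand), whose promoter is printed above. The gene was overlapped by 7 Cre peaks with 1823 bp inside it, against 11 GFP peaks with 2902 bp inside it. A GFP peak of 868 bp with 25 fragments (chr1:38218580-38219447) spanned the Gm16150 start. In the Cre list, 3 peaks of 307, 147 and 325 bp with 12, 9 and 12 fragments overlapped it. The acetylation of this part of Aff3 can thus not be assigned by position to Aff3 alone.

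Aff4, the main scaffold of the super elongation complex, lies at chr11:53350640-53421830 and was marked after its start only. There 2 Cre peaks with 9 and 10 fragments stood beside 1 GFP peak with 13 fragments (chr11:53351790-53352081), covering 345 and 292 bp. The other GFP peak, with 9 fragments, lay nearest to Uqcrq, a gene of the respiratory chain. Aff1, the AF4 scaffold gene at chr5:103692362-103855322, had 3 scattered peaks and no overlap between the lists. Its 1 Cre peak had 8 fragments and lay 70.8 kb after the start, and its GFP peaks had 12 fragments at 1.08 kb before and 9 fragments at 18.5 kb after it, counted from the first of its 2 listed start sites (103754162). The 7 peaks of Aff4 and Aff1 had between 8 and 13 fragments, where the whole lists had a median of 12 and a lowest value of 7.

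Where peaks of the 2 lists overlapped, their summits could be set side by side. At Ell the 6 pairs had 13, 14, 15, 14, 12 and 17 fragments in the Cre library, against 12, 9, 10, 9, 11 and 15 in the GFP library, in order along the chromosome. The Cre summit was the higher in all 6 pairs. At Ell2 the Cre summit was higher in 5 of 9 pairs, lower in 3 and equal in 1. At Aff3 it was higher in 7 of 24 pairs, lower in 16 and equal in 1. Over all 5779 overlapping pairs of the genome, 46.7% had the higher Cre summit and 42.5% the lower. Ell, Ell2 and Aff3 were selected with library balance in view, so their pairs are no separate check against these shares. Peaks of a pair recur where 1 wide peak overlaps several, as at Aff3. The background pileup was 1.01 for Cre, against 0.949 for GFP, with a ratio of 1.06. Summit pileups were not adjusted for this ratio, and the narrowest Ell pairs had 13 against 12 and 12 against 11 fragments.

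**Figure D4:**
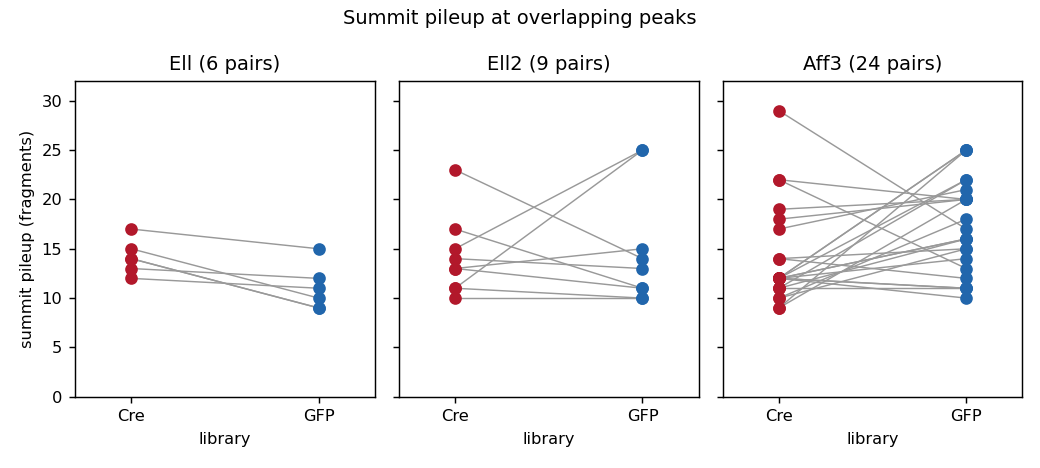
Summit pileup (fragments) of overlapping peaks at Ell, Ell2 and Aff3, with the Cre peak left and the GFP peak right, joined by a line for each pair. Lines run down to the right in 6 of 6 pairs at Ell and in 5 of 9 at Ell2, and up to the right in 16 of 24 at Aff3.

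Among the 180 genes with 20 or more peaks in both lists together, the median Cre share of covered length was 48.0%, with quartiles of 41.0% and 55.3% and extremes of 23.3% and 92.0%. Counted from the highest Cre share, Ell stood 6th with 75.7%, Ell2 11th with 71.5% and Aff3 167th with 34.1%. All 3 lay outside the quartiles. The members were selected with this balance in view, and the class of 20 or more peaks was chosen after the values were seen. Their ranks are therefore a description of these 2 libraries only, and neighbouring genes can share peaks.

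**Figure D5:**
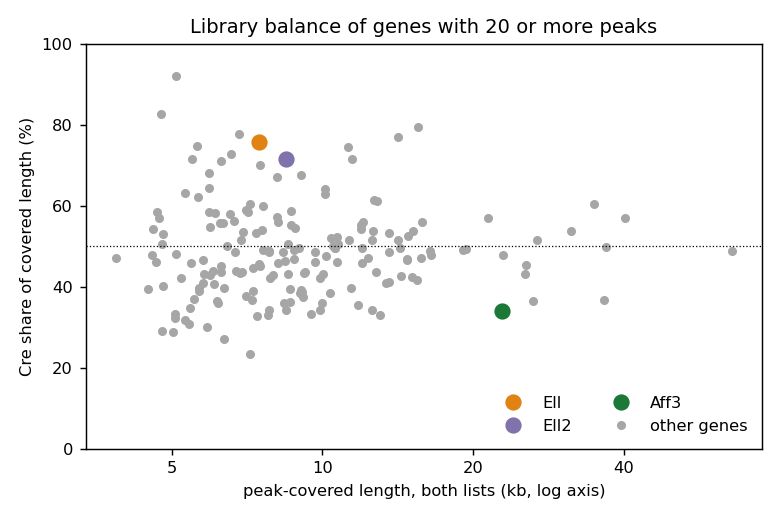
Cre share of the peak-covered length (%) against the covered length in both lists (kb, log axis) for the 180 genes with 20 or more peaks, with Ell, Ell2 and Aff3 in colour and the dotted line at 50%. Ell and Ell2 lie near the top of the cloud at 75.7% and 71.5%, and Aff3 lies in its lower part at 34.1%.

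Few member peaks stood close to a start site. Within 1 kb of the start or of an annotated gene end, Ell had peaks in both lists, Ell2 in the Cre list alone and the other 4 members in neither. Over all protein-coding genes, 9.26% had a peak within 1 kb of a gene end in both lists, 4.28% in the Cre list alone and 4.77% in the GFP list alone. Within 1 kb of the start site, for the 17492 genes with a known one, the figures were 10.1% for both lists, 4.47% for Cre alone and 5.12% for GFP alone, and the members' calls were the same. The Ell2 call rests on distance: its nearest Cre peak began 870 bp and its nearest GFP peak 1290 bp after the start. The nearest peaks of Aff4 were 1093 and 1023 bp from its start, just past the limit, and those of Ell 498 and 501 bp. With a window of 2.5 kb, Ell, Ell2 and Aff4 had peaks in both lists and Aff1 in the GFP list alone. The share over all genes was not computed for that window, so these calls have no comparison. Ell, Ell2 and Aff4 thus had acetylated nucleosomes a short way from the start in both cultures.

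A companion list of 37 genes of transcription elongation held P-TEFb and its inhibitors, pausing factors and the other subunits of these complexes. Of these, 25 had a peak in either list. Counting each peak once, since the neighbourhood of Hexim2 takes in Hexim1, they had 51 Cre peaks over 10926 bp, against 45 GFP peaks over 10615 bp, and 50.7% of the length was Cre. Cover was at least 2-fold longer in the Cre library at 7 and at least 2-fold shorter at 5, out of 25, beside the 28.5% and 29.0% of all genes with a peak given above. The list was therefore nearly even as a whole, as were the 6 members together. The longest cover was at Hexim2, of a P-TEFb inhibitor, with 1091 Cre bp against 1666 GFP bp, of which 589 Cre bp and 630 GFP bp are those of Hexim1 too. Dot1l, the H3K79 methyltransferase, followed with 1224 and 988 bp, Ice2, of the little elongation complex, with 947 and 798 bp, and Ccnt1, cyclin T1, with 778 and 949 bp.

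Peaks within 1 kb of a gene end were found in both lists at 14 of the 37 companions (37.8%, beside 9.26% of all protein-coding genes). They were in the Cre list alone at 3 (8.11%, beside 4.28%) and in the GFP list alone at 2 (5.41%, beside 4.77%). The shares of all genes include the 67.6% of genes with no peak in either list, whereas 25 of the 37 companions had a peak. Shares among genes with a peak were not computed. The gene-end peaks in the Cre list alone were at Nelfb, a subunit of the pausing factor NELF (295 bp in the Cre library), Cdc73, of the PAF complex (169 bp), and Mepce, which caps the 7SK RNA (150 bp). Those in the GFP list alone were at Supt6, a histone chaperone (326 bp in the GFP library), and Nelfe, another NELF subunit (144 bp). Aff2, the paralog on chromosome X, and Mllt1 and Mllt3, whose products join the same complex, had no peak in either list. None of the 37 approached the peak numbers of Ell, Ell2 or Aff3, since no companion had more than 9 peaks.

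The libraries themselves were alike in size, with 13130 Cre peaks over 3264813 bp, against 12873 GFP peaks over 3236648 bp, and with a median summit of 12 fragments in each. The 8 chondrocyte markers examined, among them Col2a1, Acan and Sox9, all had peaks in both lists, covering 30095 and 39577 bp. Of 17 markers of bone, fat, vessel, blood and muscle cells, 15 had no peak, and Sp7 and Cd68 together had 2 Cre and 6 GFP peaks. The peak lists do not measure the deletion of Hdac3, so they cannot check the genotype labels. The part of the difference in chondrocyte marker cover in the balance of Aff3, Ell and Ell2 was not tested.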

How the data were processed

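H3K27ac chromatin immunoprecipitation was analysed in 2 libraries, 1 per culture, and the 2 input libraries were not analysed here. Per the submitters' processing notes, the tools were bcl2fastq 1.8.4, BWA, Picard and SICER and the build was mm10. The deposited lists have the name and columns of MACS2 output, with settings and control library not given here. Each deposited row holds a position, a score, a fold enrichment at the summit, a −log10 p-value and a −log10 q-value. These are the authors' own values. Summit pileups solved from them were set side by side across the 2 lists. The alternatives with a q-value threshold used the same threshold for both lists.

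From fold and p-value, summit pileup and expected pileup were solved with a Poisson tail, trying whole numbers of fragments only. For 100% of peaks the solution met the listed −log10 p-value within 0.001. Total reads were not among the values used, so depth is known only as background pileup. Starts were made 1-based. Peaks overlapping a gene with 10 kb on each side were counted whole. Genes and promoters came from RefSeq tables of GRCm38.p6, which hold no exons here. Overlap meant at least 1 shared bp. Shares carry exact Clopper-Pearson 95% intervals (SciPy 1.17.1). With 1 library per group there was no test. All 6 members were named; of the companions, those with a peak at a gene end in 1 list alone and the 4 of longest cover, and others named in the text were chosen after their values were seen. Interval counting and pileup recovery were tested on simulated data. Members, lists and settings were chosen with earlier results of these data known. Alternatives were other flanks, thresholds, overlap rules and windows, and leaving out each member.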

Additional observations from a re-analysis of the deposited data

How the results depend on the processing

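The direction of library balance at Ell, Ell2 and Aff3 was the same under all 8 alternatives of flank, threshold, list size, nearest gene and peak merging that were run. Over these the Cre share of covered length lay between 74.8% and 100% at Ell, between 68.8% and 75.4% at Ell2, and between 19.3% and 34.1% at Aff3. Some alternatives kept the very same peaks. These were the nearest gene rule at each of these genes, the gene body alone at Ell2 and Aff3, and equal list size at Ell and Ell2. The 8 are thus not separate checks, and the members were selected on this balance. The sum over the members depended on the threshold. Where the −log10 q-value was 10 or more, the Cre share was 35.9% of the length and 40.9% of the peaks (9 Cre and 13 GFP peaks, with no GFP peak left at Ell). With summits of at least 15 fragments it was 37.8% and 44.7% (17 Cre and 21 GFP peaks). Without Aff3 it was 70.6% and 68.5%, on 12911 Cre and 5372 GFP bp, so the even sum rests on Aff3. The cause of the shift with the threshold was not tested. With gaps of 1 kb the clusters numbered 40, against 23. With overlap over at least 50% of both peaks, 20.5% of Cre and 23.9% of GFP member peaks overlapped, against 51.3% and 53.7%. With a distance of 1 kb the shares were 83.3% and 77.6%. The whole Cre and GFP lists had 40.7% and 41.4% for any overlap, and 64.8% and 67.4% within 1 kb. The 50% rule was not run on the whole lists. Peaks at the start or a gene end were found in both lists at 0 members with a window of 500 bp and at 3 with 2.5 kb. With 500 bp Ell had one in the Cre list alone, its nearest Cre and GFP peaks being 498 and 501 bp from the start. With 2.5 kb such peaks were in the Cre list alone at 0 members and in the GFP list alone at 1. Shares over all genes were computed for the 1 kb window only. No paired analysis was possible because each group had 1 library. Low pileups limit what a missing peak shows.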
